A study of Mus musculus with 21 samples.

Results

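The 9 genes described here are those that organise lymph nodes and B cell follicles: the chemokines Ccl21a, Ccl19 and Cxcl13, the vessel adhesion molecule Madcam1, the complement and IgE receptors Cr2 and Fcer2a, the chemokine receptor Cxcr5, and the cytokines Lta and Ltb. They were chosen by symbol because earlier results of these same libraries showed them high in 1 tumour. All 9 were found among the 19241 genes listed in the tumour tables. RNA sequencing was done on mammary tumours of MMTV-PyMT mice, in which the mouse mammary tumour virus promoter drives the polyoma middle T oncogene in mammary epithelium, so every tumour compared here carried the same transgene. Mice were either sedentary or physically active, and tumours were taken at week 12 or week 18, which gave 4 groups of 3 libraries labelled as biological replicates. The labels do not say what the weeks are counted from or what the activity was. The series also holds libraries of sorted hematopoietic stem cells, 21 libraries in all, and these enter no comparison here.

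Lymph nodes are built by exchange between lymphocytes and stromal cells. Lymphocytes make lymphotoxin from the Lta and Ltb products, which binds the lymphotoxin beta receptor on stromal cells and activates noncanonical NF-kB. Stromal cells then release CCL19 and CCL21, which draw T cells and dendritic cells through CCR7, and CXCL13, which draws B cells through CXCR5. High endothelial venules are the vessels through which lymphocytes enter a node, and lymphatic vessels make CCL21 as well. Cr2 and Fcer2a are expressed both by B cells and by follicular dendritic cells, the stromal cells of the follicle, so neither marks stroma alone. Lta, Ltb and Cxcr5 are mainly lymphocyte genes. The same genes are known from tertiary lymphoid structures, which are lymphocyte aggregates that form in inflamed tissue and in tumours.

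Upstream sequences are shown because noncanonical NF-kB is known to act through kappa B motifs. Each is the 250 bases before the RefSeq start site on the GRCm38.p6 build, and capitals mark a match, on either strand, to the kappa B motif spelled GGGA, then any 4 bases, then CC. Cxcl13 lies on the plus strand with the window at chr5:95956689-95956938, Madcam1 on the plus strand at chr10:79664309-79664558 and Cr2 on the minus strand at chr1:195176720-195176969.
Cxcl13: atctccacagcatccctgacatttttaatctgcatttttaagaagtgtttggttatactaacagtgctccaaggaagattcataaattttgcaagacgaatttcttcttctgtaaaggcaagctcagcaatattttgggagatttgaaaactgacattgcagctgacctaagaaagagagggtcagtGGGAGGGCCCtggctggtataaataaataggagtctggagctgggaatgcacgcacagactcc
Madcam1: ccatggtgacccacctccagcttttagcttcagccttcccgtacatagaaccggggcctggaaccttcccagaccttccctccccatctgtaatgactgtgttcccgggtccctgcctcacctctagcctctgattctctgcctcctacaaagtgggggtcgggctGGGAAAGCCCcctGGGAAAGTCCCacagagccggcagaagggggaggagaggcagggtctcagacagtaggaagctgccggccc
Cr2: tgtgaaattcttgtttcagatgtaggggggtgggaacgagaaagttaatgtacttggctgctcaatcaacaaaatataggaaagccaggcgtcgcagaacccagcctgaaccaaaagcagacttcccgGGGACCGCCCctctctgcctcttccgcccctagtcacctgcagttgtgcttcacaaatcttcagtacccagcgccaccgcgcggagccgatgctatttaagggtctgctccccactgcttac
The motif was present in 5793 of 32851 promoters of the same length (17.6%) and in 5 of the 10 promoters of the 8 members in the table, which were those of Ccl19, Cr2, Cxcl13, Ltb and Madcam1. Fcer2a had 3 promoters in the table, none with the motif. Cxcl13 matched 63 bases and Cr2 122 bases before the start. At Madcam1 the motif matched at 84 and 71 bases before the start, and the opposite strand matched at 70 bases, overlapping the match at 71. These are letter matches in a window and not measured binding, and sites of other spelling were not searched.

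A second pair of sequences is shown because the Ccl21 genes are near-identical copies, which bears on what the Ccl21a counts can mean. Bases 68 to 210 of the coding sequence hold every difference between Ccl21a and Ccl21b, in capitals.
Ccl21a: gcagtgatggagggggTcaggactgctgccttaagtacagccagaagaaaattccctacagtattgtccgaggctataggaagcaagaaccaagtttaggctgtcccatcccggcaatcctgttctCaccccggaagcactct
Ccl21b: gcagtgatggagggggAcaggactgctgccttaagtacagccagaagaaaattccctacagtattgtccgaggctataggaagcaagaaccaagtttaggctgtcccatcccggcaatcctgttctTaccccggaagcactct
Over 402 coding bases the copies differed at 2 positions, T84A and C194T, with the base of Ccl21a first and positions counted from 1 at the start of the coding sequence. The coding identity was 99.5%. Upstream of the start, Ccl21a and the further copy Ccl21d differed at 1 of 249 bases. As background, the form encoded by Ccl21a is known from lymphoid organs and the other form from lymphatic vessels outside them.

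In the GENCODE M21 annotation of the same build, Ccl21a (ENSMUSG00000094686, minus strand, positions 42772860 to 42773993) and Ccl19 (ENSMUSG00000071005, minus strand, 42754525 to 42756577) are neighbours on chromosome 4. Lta (ENSMUSG00000024402, minus strand, 35203165 to 35205351) and Ltb (ENSMUSG00000024399, plus strand, 35194439 to 35196320) are neighbours on chromosome 17. Cxcl13 (ENSMUSG00000023078) is on chromosome 5, Madcam1 (ENSMUSG00000020310) on chromosome 10, Cr2 (ENSMUSG00000026616) on chromosome 1, Fcer2a (ENSMUSG00000005540) on chromosome 8 and Cxcr5 (ENSMUSG00000047880) on chromosome 9. The tables give counts per gene, so no exon or transcript was told apart.

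The 12 tumour libraries held 20838963 to 28973775 reads. Replicate 3 of the active week 12 group stood apart. It had the highest value of the 12 for 25.1% of the 16462 genes with a mean normalized count of at least 10, and the lowest for 21.8%. Its value was over 10 times that of every other tumour for 190 of these genes (1.15%), against 0 to 14 genes in each other library. Replicate 1 of the active week 18 group was the highest for 18.1% and the lowest for 16.7%. Replicate 1 of the sedentary week 18 group was the highest for 13.5% and the lowest for 17.2%. Results that rest on active week 12 replicate 3 are given with and without it. In bulk tumour RNA, fewer cells of a type and less RNA per cell cannot be told apart. Floors and intervals below cover counting error only, since reads carried no molecular identifiers.

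Values below are normalized counts, that is gene counts divided by the authors' factor for each library. All 9 members had their highest value of the 12 tumours in active week 12 replicate 3. All but Cxcl13 were there over 10 times the highest of the other 11. For Madcam1 the others held at most 3 reads, and its ratio to that floor was 9.91. Since the members were chosen for this pattern, these levels are a description. The summed level of the 9 members was 16563 in that library and 63.2 to 495.6 in the other 11.

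**Figure D1:**
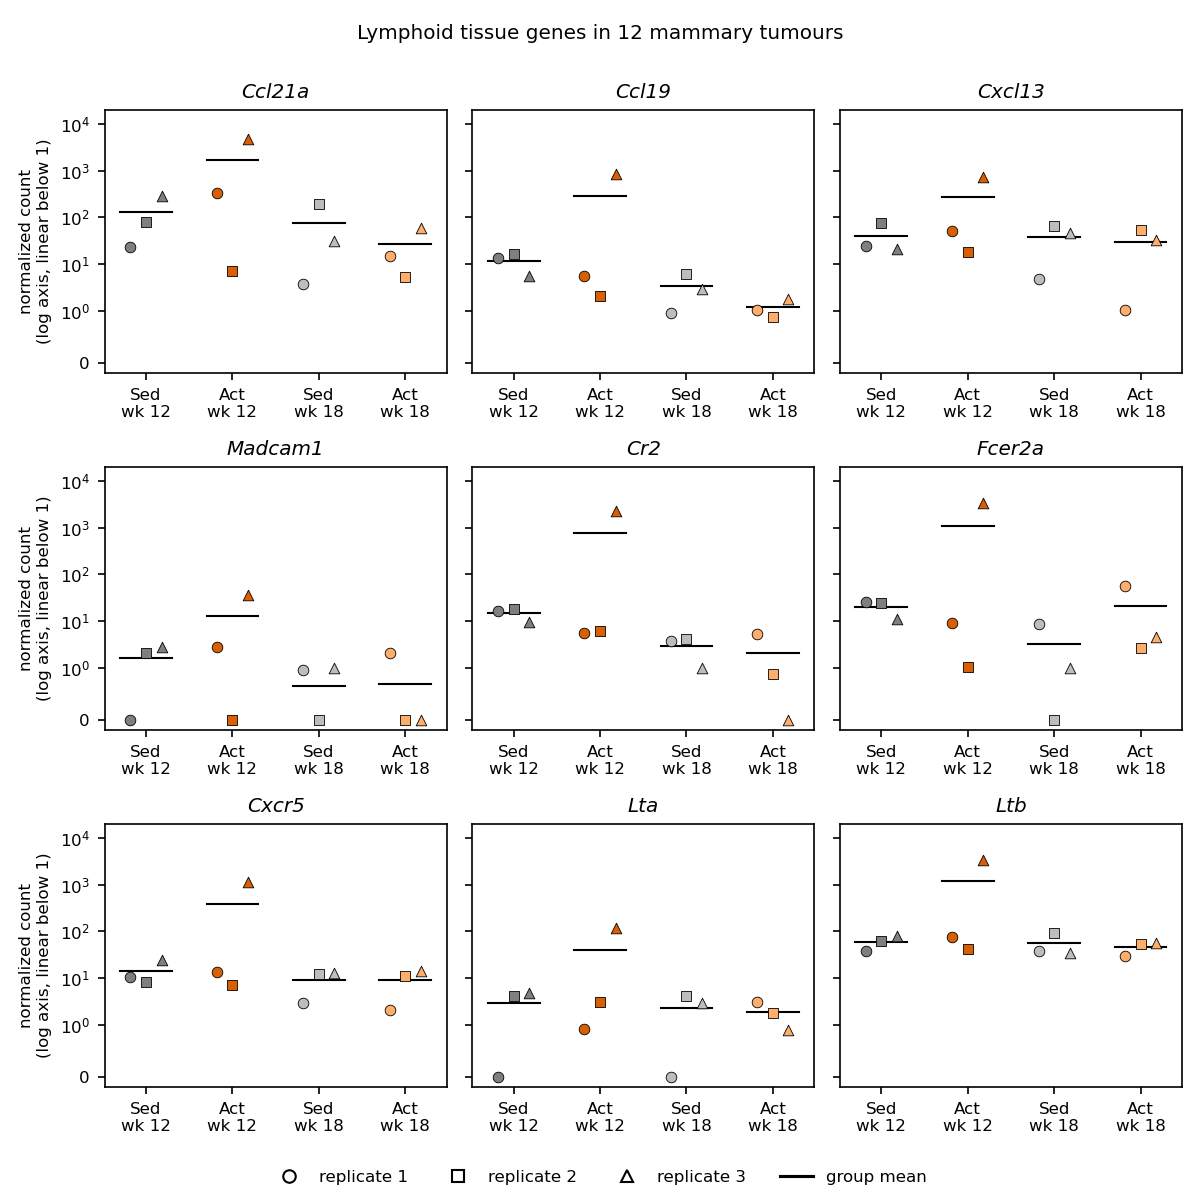
Normalized counts of the 9 genes in each of 12 tumours, on an axis that is logarithmic above 1 and linear below, with circles, squares and triangles for replicates 1, 2 and 3 of the sedentary (Sed) and active (Act) groups at weeks (wk) 12 and 18 and a bar at each group mean. The triangle of the active week 12 group is the highest point in every panel, for example at 4705 for Ccl21a and 3403 for Ltb.

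Among the chemokines, Ccl21a, the CCR7 ligand of T zone stroma and lymphatic vessels, varied widely among the tumours. Its values were 22.8, 78.0 and 283 in sedentary and 332, 7.21 and 4705 in active tumours at week 12. At week 18 they were 3.83, 190 and 31.7 in sedentary and 14.6, 5.25 and 60.6 in active tumours. The low and high tumours were found in every group, and the groups overlapped at both weeks. Without the library that stood apart the highest value was 332, in active week 12 replicate 1, and 4705 was 14.2 times that value.

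Ccl19, the other CCR7 ligand, was far lower than Ccl21a in most tumours. It stood at 13.2, 16.9 and 5.61 in sedentary and 5.47, 2.06 and 849 in active tumours at week 12. The week 18 values were 0.957, 6.07 and 2.97 in sedentary and 1.04, 0.874 and 1.78 in active tumours, where no active library held over 2 reads. The value of 849 was 50.3 times the next highest.

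Cxcl13, the ligand that draws B cells and follicular helper T cells, was measured in all 12 tumours. Counts were 24.0, 76.9 and 21.5 in sedentary and 51.9, 18.5 and 738 in active tumours at week 12, then 4.79, 64.8 and 46.6 in sedentary and 1.04, 54.2 and 32.1 in active tumours at week 18. Its value in the library that stood apart was 9.60 times the next highest, the smallest such ratio among the members with over 3 reads elsewhere. Replicate 1 was the lowest of its group in both week 18 groups.

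Cxcr5, the CXCL13 receptor of B cells and follicular helper T cells, had values of 10.8, 8.43 and 24.3 in sedentary and 13.7, 7.21 and 1134 in active tumours at week 12. At week 18 it stood at 2.87, 12.1 and 12.9 in sedentary and 2.08, 11.4 and 14.3 in active tumours. The week 18 groups spanned nearly the same range, each with its lowest value in replicate 1.

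Madcam1, an adhesion molecule of mucosal and some lymph node venules, was at the limit of detection outside 1 library. No other tumour held over 3 reads, 5 of them held 0, and the others had normalized counts of 0.957 to 2.81. Active week 12 replicate 3 held 32 reads, a normalized count of 35.7, which is at least 9.91-fold higher than what 3 reads stand for in the other tumours.

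Cr2, the complement receptor of B cells and follicular dendritic cells, was at 16.8, 17.9 and 9.36 in sedentary and 5.47, 6.18 and 2273 in active tumours at week 12. Its week 18 values were 3.83, 4.05 and 0.991 in sedentary and 5.20, 0.874 and 0 in active tumours, the last with an upper limit of 3 reads. The value of 2273 was 127 times the next highest, the widest gap among the members with over 3 reads elsewhere.

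Fcer2a encodes CD23, the low-affinity IgE receptor of follicular B cells and follicular dendritic cells. Week 12 counts were 25.2, 24.2 and 11.2 in sedentary and 9.11, 1.03 and 3307 in active tumours. Week 18 counts were 8.62, 0 and 0.991 in sedentary and 57.2, 2.62 and 4.46 in active tumours. It was the member with a second library raised over the rest, active week 18 replicate 1, described further on.

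The lymphotoxin genes differed widely in level. Lta stood at 0, 4.22 and 4.68 in sedentary and 0.911, 3.09 and 118 in active tumours at week 12, and at 0, 4.05 and 2.97 in sedentary and 3.12, 1.75 and 0.891 in active tumours at week 18. Ltb, whose product anchors lymphotoxin to the cell surface, had 38.4, 61.1 and 78.6 in sedentary and 74.7, 41.2 and 3403 in active tumours at week 12. At week 18 Ltb had 37.3, 94.1 and 34.7 in sedentary and 30.2, 54.2 and 57.0 in active tumours. Ltb was the steadiest member outside the library that stood apart, with 30.2 to 94.1 over the other 11.

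Per kilobase of exon, the median normalized count over the 11 other tumours was highest for Ccl21a at 36.5, then Ltb at 35.8 and Cxcl13 at 27.9. A gap followed to Ccl19 at 3.43, Cxcr5 at 3.41, Fcer2a at 2.79 and Lta at 2.15, with Madcam1 at 0.667 and Cr2 at 0.641 last. The ranges of neighbours in this order overlapped in every case, and the least overlap in rank was between Cxcl13 and Ccl19, where Cxcl13 was the higher in 10 of 11 tumours. In active week 12 replicate 3 the per kilobase order was different: Ccl21a stood at 5408, Ltb at 2245, Fcer2a at 1070, Ccl19 at 979, Cxcl13 at 642, Cxcr5 at 340, Cr2 at 280, Lta at 85.5 and Madcam1 at 24.8.

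The question of the design was how activity changed the tumours. At week 12, the difference of active minus sedentary means on the log2(value + 1) scale was above 0 for all 9 members, between 1.02 for Fcer2a and 1.93 for Ltb, with a median of 1.53 against 0.012 over all 19162 genes. The scale understates changes of low genes and weights the 3 tumours of a group on a log scale. Count models, which compare group means, gave larger values from the same reads, between 2.70 for Cxcl13 and 5.75 for Fcer2a with edgeR, with a median of 4.27 with edgeR and 4.28 with DESeq2. The authors' deposited table gave log2 fold changes between 2.73 for Cxcl13 and 5.76 for Fcer2a. None of the 9 passed an adjusted p of 0.05 in limma with Benjamini-Hochberg adjustment, where 0.517% of all genes did, and the groups overlapped for all 9, where 9.13% of genes had groups that did not overlap. The members were chosen from these values, so nothing is read from either count. Without active replicate 3, all 9 differences were below 0, with a median of -0.36. They then ran from -2.15 for Fcer2a, -1.42 for Ccl19 and -1.15 for Cr2 to -0.036 for Ltb.

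The difference at week 12 therefore changed sign with 1 library for every member. Leaving out active replicate 2, the lowest tumour for Ccl21a and Fcer2a at that week, gave a median of 3.00.

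**Figure D2:**
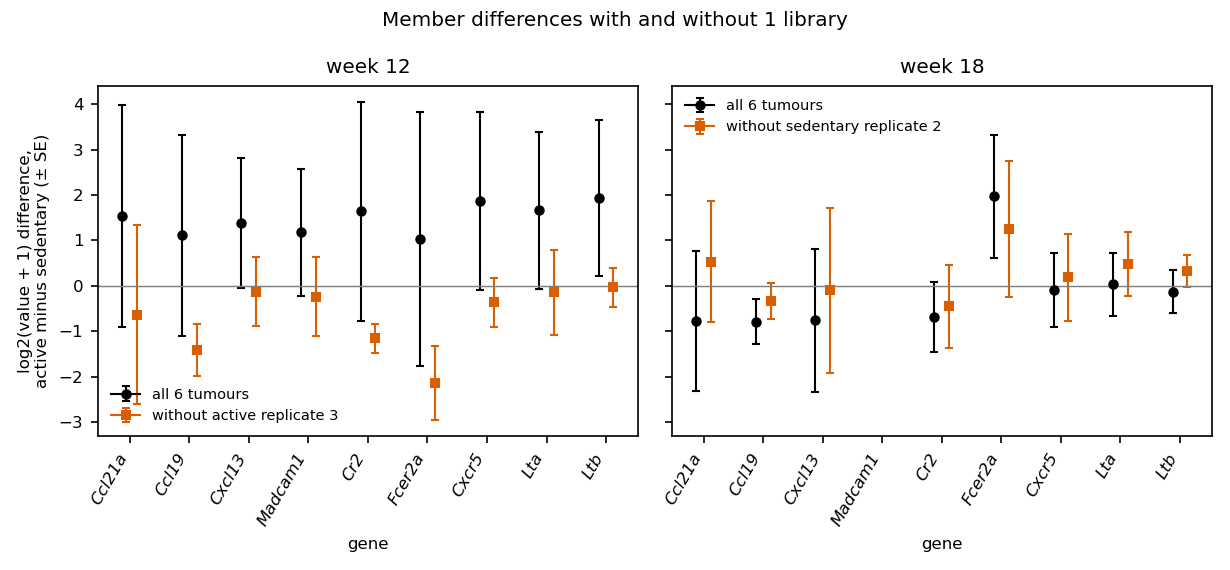
Active minus sedentary difference of each gene on the log2(value + 1) scale with its standard error from limma, at week 12 with all 6 tumours (circles) and without active replicate 3 (squares), and at week 18 with all 6 tumours and without sedentary replicate 2. At week 12 all 9 circles lie above 0 and all 9 squares below; at week 18 Madcam1 was under the filter and has no point.

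At week 18, 8 of the 9 members reached a group mean of 1, the minimum for a test, and the exception was Madcam1. None of the 8 passed limma's threshold for active against sedentary tumours, with adjusted p-values from 0.824 to 0.995 and a background of 0% of 18939 genes called. Over all genes, 1131 (5.97%) had an unadjusted p under 0.05 in limma, while edgeR called 0 at the adjusted threshold and DESeq2 called 52. The groups overlapped for all 8 members, where 13.6% of genes had groups that did not overlap. Ccl19 had a difference of -0.79 ± 0.50 (SE, n = 3 per group, limma adjusted p = 0.824). Fcer2a had the largest difference, 1.97 ± 1.35, at the same limma adjusted p of 0.824. The differences of the others were -0.78 for Ccl21a, -0.76 for Cxcl13, -0.69 for Cr2, -0.13 for Ltb, -0.094 for Cxcr5 and 0.032 for Lta. In edgeR the difference of Ccl21a was -1.47, that of Ccl19 -1.34 and that of Fcer2a 2.67. In limma the median was -0.13 over all 9 members and -0.41 over the 8 tested, against 0.0091 over all genes tested.

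Sedentary replicate 2 was the highest of its group for Ccl21a, Ccl19, Cxcl13, Cr2, Lta and Ltb at week 18. Without it the median over the 9 members was 0.19 and the difference of Ccl21a was 0.53. Without sedentary replicate 1 the median was -0.69. For the difference between the activity effects at the 2 weeks, none of the 9 members passed limma's adjusted threshold over 12 tumours, where 0.0104% of genes did; week 12 enters this difference, so it is a description too. The median of that difference of effects, week 18 minus week 12, was -1.96 with all tumours and 0.18 without active week 12 replicate 3. With all tumours it was -4.49 in edgeR and -4.54 in DESeq2.

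Genes of other cells moved with the 9 members in active week 12 replicate 3. Over all genes with a mean of at least 10, 25.1% were highest in that tumour. Of 13 B cell genes listed, all 13 were highest there, and their sum was 31855 against 313 to 1603 in the other 11. Cd79a, part of the B cell receptor, had 5131 against 2.62 to 26.3. All 14 T cell genes were likewise highest there, with a sum of 17618 against 265 to 649.6. The T cell kinase gene Lck had 2809 against 48.9 to 130.

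All 9 genes of naive and recirculating lymphocytes were also highest in that library. S1pr1, the sphingosine 1-phosphate receptor by which lymphocytes leave a node, was at 3363 against 191 to 450.1. Ccr7, the receptor of Ccl19 and Ccl21a products, was at 1980 against 5.20 to 57.9. The part of lymphocyte number in the members' values was not tested.

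**Figure D3:**
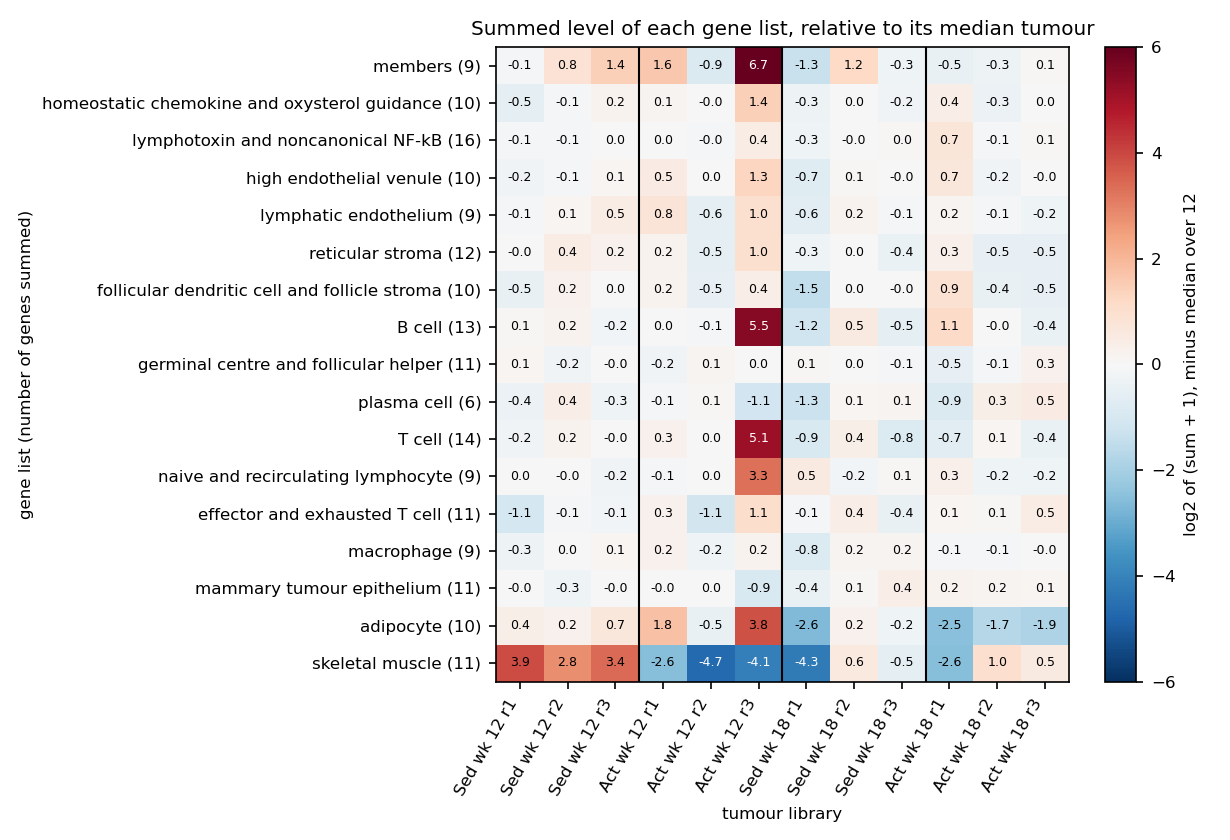
Summed normalized count of each gene list in each tumour, as log2(sum + 1) minus the median of the 12 tumours, with the number of genes summed in brackets and vertical lines between the 4 groups. The library labelled Act wk 12 r3 is at 6.7 for the 9 genes, 5.5 for B cell and 5.1 for T cell genes, and at -0.9 for mammary tumour epithelium.

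Markers of the vessels and stroma that a lymph node holds were mixed in the same library. Of 10 high endothelial venule genes, 5 were highest there, beside 25.1% of all genes. Chst4, a sulfotransferase that modifies the sugars to which lymphocytes attach on these venules, had 127 normalized counts there and at most 1 read in any other tumour, which is at least 35.3-fold higher. Fut7, a fucosyltransferase of the same sugars that leukocytes also express, had 155 against 0.957 to 12.5. Enpp2, which encodes autotaxin and is also an adipocyte gene, had 5552 against 33.0 to 873. Ackr1 and Cd34 were the other highest genes, while Podxl, the most abundant of the list, was at 2063 within the range of 1522 to 2713 of the others. Selp and Sele, the selectins of inflamed vessels, also stayed within the range of the others.

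Of 12 reticular stroma genes, 8 were highest in active week 12 replicate 3, beside 25.1% of all genes. Grem1, a BMP antagonist expressed by reticular cells, was at 173 against 0 to 10.7. Tnfsf11, the cytokine RANKL of lymph node marginal stroma and of activated T cells, was at 61.3 against 0 to 6.55. Thy1, the most abundant of this list and also a T cell gene, was at 3787 against 687 to 1870. The rest of the list lay within the ranges of the other tumours. Il33 was at 374 within 287 to 2598, Icam1 at 1662 within 250 to 2675 and Des at 785 within 43.1 to 3434. Pdpn, also on this list, is given with the lymphatic genes. Among the lymphatic endothelium genes 3 of 9 were highest, near the 25.1% of all genes. They were led by Stab2, a scavenger receptor of sinus endothelium, at 425 against 1.03 to 15.2. Pdpn, the most abundant lymphatic gene and also a stromal one, was at 419 within the range of 283 to 880. The follicle stroma list had 4 of 10 genes highest, beside the same 25.1%. They were C4b at 19113 against 1232 to 14604, Prnp at 7058 against 1132 to 4859, Coch at 36.8 against 0 to 14.6 and Tnfsf13b at 152 against 23.0 to 103. In the same list 1 gene was lowest there, beside 21.8% of all genes. Mfge8 (13995 against 8421 to 45387) and Clu (12709 against 1737 to 23344) were abundant in every tumour and lay within the ranges of the others. Which cells gave the Mfge8 and Clu reads was not tested.

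Fat and tumour epithelium moved as well. All 10 adipocyte genes were highest in that library, with a sum of 349977 against 3984 to 84196, and Cfd, which encodes adipsin, was at 139572 against 228 to 35310. Of 11 epithelial genes 10 were lowest there, beside 21.8% of all genes. Their sum was 66902 against 97439 to 169357, and the keratin gene Krt8 was at 15275 against 19166 to 47792. Macrophage genes summed to 17781, within the 8698 to 18290 of the others. The part of fat and of epithelial content in the members' values was not tested. No lymph node library was analysed here, and whether lymphocytes inside the tumour or lymph node tissue gave the RNA was not tested.

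Ratios of recovered reads within a library do not depend on how the library was scaled. Ltb, a lymphocyte gene, was at 3.45 reads per read of the T cell gene Cd3e in active week 12 replicate 3, inside the 0.930 to 4.92 of the other 11 tumours. Cxcl13 had 0.749 reads per Cd3e read, inside 0.125 to 2.94, and Ccl21a had 4.77, inside 0.163 to 9.44. Ccl19 had 0.861 per Cd3e read, above the 0.0385 to 0.786 of the 11 others. These gene pairs were chosen after their values were seen.

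Ccl21a also changed its ratio to a lymphatic gene and to its own copy. In active week 12 replicate 3 there were 4219 reads of Ccl21a and 86 of Ccl21b, so that Ccl21b made up 2.00% of the reads of both (95% exact Clopper-Pearson interval 1.60 to 2.46%). In the 6 other tumours with over 3 reads of Ccl21b that share was between 12.5% (9.17 to 16.4%) and 27.3% (15.0 to 42.8%). The intervals cover counting error within a library and no spread between tumours. Ccl21a was among the genes chosen for high values in the library that stood apart, so a low share there is a description. For Mmrn1, which encodes multimerin 1 of lymphatic endothelium, the share of the reads of Ccl21a and Mmrn1 was 2.72% (2.26 to 3.25%) there and 23.7 to 43.9% in the 8 other tumours with over 3 reads. Ccl21b itself was at 95.9 normalized counts, 1.12 times the next highest tumour, and Mmrn1 at 132 was below the highest of the others, 214.

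Over the 11 other tumours, the likeness of Ccl21a to lymphatic and lymphocyte genes varied by gene on the log2(value + 1) scale. Pearson's r was 0.942 with Mmrn1 (Spearman's rho 0.936) and 0.946 with Ccl21b (rho 0.936), and it was 0.376 with the T cell gene Cd3e (rho 0.309). With the lymphatic receptor gene Lyve1 r was 0.633 (rho 0.791), with Ltb 0.773 (rho 0.736) and with Cxcr5 0.655 (rho 0.709). Of these, Lyve1 was the lowest by r and the highest by rho. These are descriptions over 11 tumours that share scaling and tissue content, with pairs chosen after their values were seen. Ccl21b and its copy Gm10591 had the same number of reads in 12 of 12 tumours, so the counting did not separate them and the Ccl21b values are uncertain. Ccl21d had 13 reads in active week 18 replicate 1 and 0 elsewhere, each 0 with an upper limit of 3 reads.

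**Figure D4:**
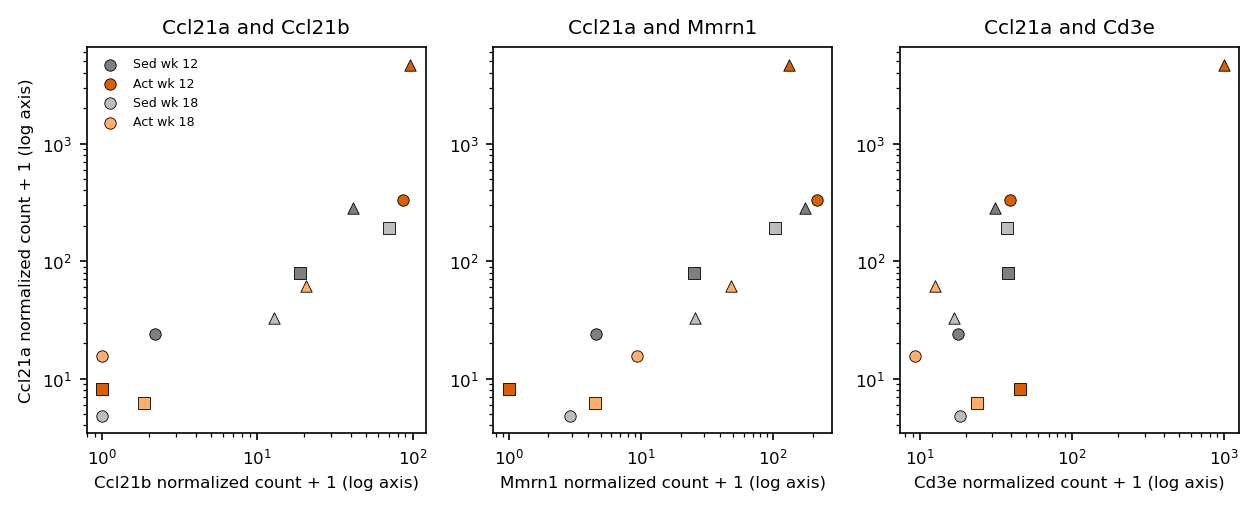
Ccl21a normalized count + 1 in 12 tumours against that of its copy Ccl21b, the lymphatic gene Mmrn1 and the T cell gene Cd3e, on logarithmic axes, with colours for the groups and circles, squares and triangles for replicates 1 to 3. Active week 12 replicate 3, at a Ccl21a count of 4705, lies above the other tumours in the first pair of panels and at the far right in the third.

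Active week 18 replicate 1 was the second library of interest, for Fcer2a alone. It held 55 reads of Fcer2a, where the other week 18 tumours had at most 9 reads of Fcer2a. Cr2, the member that Fcer2a resembles in cell type, was at 5.20 (5 reads) there. That was the highest Cr2 value of week 18, where the other tumours had 0 to 4.05 and at most 4 reads. Ms4a1, which encodes the B cell antigen CD20, was at 1.04, and 10 of 14 T cell genes had their lowest value of the 12 tumours there. All 13 B cell genes were highest in active week 12 replicate 3, so none could be highest here. Of the 13, 4 were lowest in active week 18 replicate 1, beside 16.7% of all genes. Pax5, the transcription factor of B cell identity, was among these. It stood at 3.12 against 9.91 to 36.9 in the tumours other than active week 12 replicate 3. Certain genes linked to B cell transcription and NF-kB, chosen after their values were seen, were high in the same library. Pou2af1, a B cell coactivator, was at 1054 against 11.5 to 234 in the other tumours but active week 12 replicate 3, and Spib, an ETS factor of B and plasmacytoid cells, was at 86.3 against 7.21 to 47.4 in the same tumours.

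Nfkb2, the precursor of the noncanonical NF-kB subunit, was at 5564 in that library against 801 to 2812 in the other 11, and its partner Relb was at 2576 against 299 to 1484. Of the 16 lymphotoxin and NF-kB pathway genes other than the members, 5 were highest there (Tnf, Traf2, Traf3, Nfkb2 and Relb) and 7 were highest in active week 12 replicate 3. Over all genes the shares highest in these libraries were 18.1% and 25.1%. Among the receptor genes of the list, Ltbr, which encodes the lymphotoxin beta receptor, ran from 1366 to 2063 over the 12 tumours, with its lowest value in active week 12 replicate 3. Tnfrsf1a, the main TNF receptor, ran from 2752 to 4404. Tnfrsf1b, the TNF receptor of leukocytes, ran more widely, from 228 to 1674, and Tnfrsf14, the receptor of the cytokine LIGHT, from 26.8 to 249.8, both highest in active week 12 replicate 3. Without active replicate 1 the week 18 difference of Fcer2a was 0.73 in place of 1.97. The part of NF-kB genes in the Fcer2a value was not tested.

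**Figure D5:**
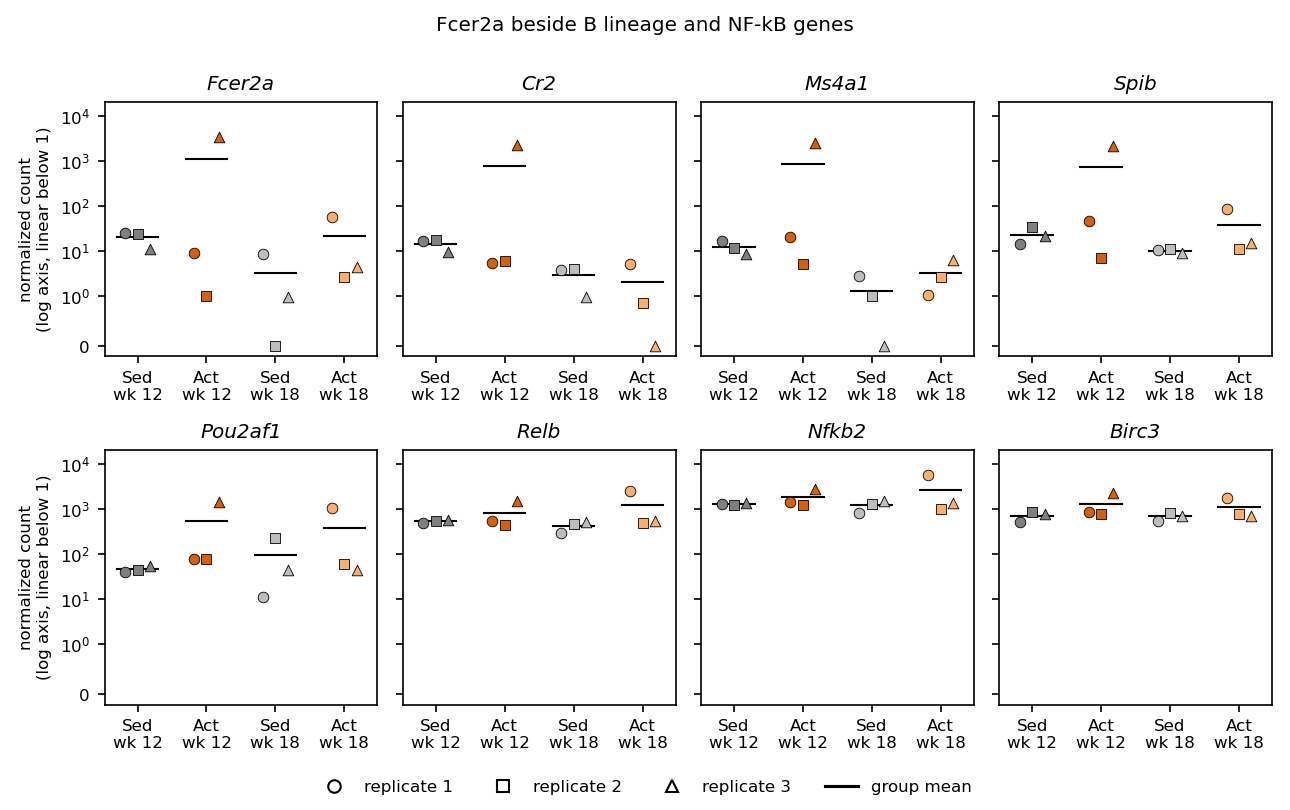
Normalized counts of Fcer2a, Cr2, the B lineage genes Ms4a1, Spib and Pou2af1 and the NF-kB genes Relb, Nfkb2 and Birc3 in 12 tumours, on an axis that is logarithmic above 1 and linear below, with symbols for replicates and bars at group means as keyed. The circle of active week 18 replicate 1 is high for Fcer2a (57.2), Spib, Pou2af1, Relb and Nfkb2 (5564) but not for Ms4a1 (1.04) or Cr2 (5.20).

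The wider pathway lists gave few calls. At week 12 none of the 10 other genes of homeostatic chemokine and oxysterol guidance and none of the 16 other lymphotoxin and NF-kB genes passed limma's adjusted threshold. Their medians were 0.51 and 0.39, against 0.012 for all genes. Without active replicate 3 these medians were 0.078 and 0.00038. Cxcl12, the abundant stromal ligand of CXCR4, was at 5706 in that library against 353 to 3175 in the others, and its receptor gene Cxcr4 was at 1310 within the range of 771 to 2861. Hsd3b7, an enzyme of oxysterol metabolism, was at 1899 within 916 to 1933.

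At week 18 none of the same lists had a gene past the threshold, with medians of 0.083 for guidance genes and 0.25 for lymphotoxin and NF-kB genes, the latter 0.10 without active replicate 1. The lists of B cell, T cell, venule, lymphatic, reticular and follicle stroma genes had no call at either week with all tumours. Adipocyte genes were lower in active tumours at week 18 in all 10 cases with no call, at a median of -1.72 with all tumours and -0.84 without active replicate 1. With all tumours, skeletal muscle was the only list with calls. Of its 11 genes, 10 were called lower in active tumours at week 12, among them the actin gene Acta1, the creatine kinase gene Ckm and the myosin gene Myh4, at a median of -7.36. Without active replicate 3, 2 of the 11 (Myh2 and Myoz1) and the reticular list gene Des were called lower. Muscle genes were low in every active tumour of that week, with sums of 316 to 1378 against 57094 to 123033 in sedentary ones, while the 9 members were high in 1 of these 3.

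Likeness to the members depended on the same library. With the mean of log2(value + 1) over the 9 genes as the profile, the 10 most alike of 16454 genes over 12 tumours included Adora2a, F730311O21Rik, Zfp318, Rcsd1, Gimap5, Miga2, H2-Ob, Chst4 and Sipa1, with Pearson's r of 0.970 to 0.984. Over the 11 other tumours they included Slc6a13, Gucy1b1, Galnt15, Hspd1-ps4, Olfml1, Ppp1r12c, Chrnb1, Plac9b and Rec8, with r of 0.897 to 0.935. The top 10 lists shared 0 genes. Among the 36 pairs of members the median r was 0.801 over 12 tumours and 0.247 over 11, where it ranged from -0.507 to 0.773. These correlations are descriptions over tumours that share scaling and tissue content.

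The authors' deposited table for week 12 gave no member an adjusted p under 0.05, and neither did that for week 18. In the authors' deposited table for week 12, the p-value was exactly 1 for 6 of the 9 members (Ccl19, Cr2, Fcer2a, Cxcr5, Lta and Ltb), although their test statistics were 2.71 to 7.92. The authors' deposited table gave Cxcl13 a statistic of 4.31 with p = 0.0379 and an adjusted p of 0.723. A p of 1 with a statistic over 3 was found for 200 genes in the authors' deposited table for week 12.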

How the data were processed

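RNA was extracted from tumours with TRIzol and sequenced as stranded mRNA libraries, per the labels' protocols. Reads were mapped to mm10, per the submitters' processing notes; the aligner, the counter and its use of strand are not given in the sources used here. The authors deposited a normalized signal per gene for each tumour. These values were whole reads divided by 1 factor per library, to a tolerance of 0.001, and the factors equal median-of-ratios factors over all 12 tumours (largest gap 4.22e-13%), so levels can be set side by side across weeks. The authors' deposited tables also hold a log2 fold change, a p-value and a test statistic or score. The 9 genes and all lists were chosen with earlier results of these data known.

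Reads were recovered with Python 3.11.15 (pandas 2.3.3). The fixed plan allowed for counts, but the values were normalized, so limma 3.58.1 in R 4.3.3 (lmFit, eBayes without trend or robust options) was run on log2(value + 1), leaving out genes whose mean was under 1 in each group compared. P-values were adjusted by Benjamini-Hochberg over all genes, at a threshold of 0.05. The procedure was tested on simulated data. The alternatives were TMM scaling, total reads, no filter or a mean of 10, pseudocounts of 0.1 and 10, edgeR 4.0.16 (quasi-likelihood) and DESeq2 1.42.0 on recovered reads, the replicate number as a block, and leaving out each library. The labels call the replicates biological; p-values measure the spread between these samples. Same-numbered libraries deviated together at week 18, with correlations of 0.164, 0.159 and 0.139, and not at week 12 (-0.033, -0.095 and 0.092). Week 18 thus met a rule of every pair over 0.1, which does not establish a pairing. The labels state no pairing, the main fits used none, and the block was an alternative. Beside the 9 genes, the text names the 3 list genes with the highest mean, genes past the threshold and the 10 genes most alike; others were chosen after their values were seen, and some genes under this rule are not reported here. Per kilobase values use the union of GENCODE exons. Promoters came from RefSeq for 8 of the 9 genes. The hematopoietic stem cell tables served only for the reads given under the closing observations.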

Additional observations from a re-analysis of the deposited data

Results flagged for a closer look

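Reads of 3 of the 9 genes were found in the libraries of sorted hematopoietic stem cells (HSC) of sedentary mice, which enter no comparison here, above the 3 reads that a count of 0 allows. Ltb, the lymphotoxin gene of lymphocytes, had 17, 8 and 51 reads in replicates 1, 2 and 3. Cxcr5 had 13 reads and Cr2 had 5 in replicate 3, and both had 1 read in each of the other replicates. The libraries held 18260169, 16406889 and 58500940 reads, so replicate 3 was the deepest. The other 6 genes are not among the genes listed in that table. Kit, a gene of stem and progenitor cells, had 3126 to 12872 reads in the same libraries.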

How the results depend on the processing

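At week 12 the count of genes called, 99, was 208 with DESeq2, 0 with the replicate number as a block and between 9 and 71 when a library was left out. At week 18, with no call, it was 1 without a filter, 5 at a pseudocount of 0.1, 52 with DESeq2, 0 with the replicate block and 0 to 5 with a library left out (5 without sedentary replicate 1). For the difference of effects, 2 calls became 0 with edgeR, 172 with DESeq2, 69 with the replicate block and 0 to 23 with a library left out. No member was called in any of these fits. The replicate block changed no other call; at week 18 it left Fcer2a at an unadjusted p of 0.00399 and an adjusted p of 0.572 in limma.

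In limma the median member difference at week 12 ran from -0.364 without active replicate 3 to 3.00 without active replicate 2; it was 4.27 with edgeR and 4.28 with DESeq2 on all 6 tumours. At week 18 it was -0.774 at a pseudocount of 0.1 and -0.689 to 0.187 with a library left out. Single members changed sign at week 18: Cxcr5 was at 0.00636 with edgeR and 0.00419 with DESeq2, and Lta was at -0.0395 with a pseudocount of 10, -0.276 with edgeR and -0.286 with DESeq2. With a library left out, Ccl21a ran from -2.12 to 0.531, Cxcl13 from -1.85 to 0.703, Cxcr5 from -0.695 to 0.625, Lta from -0.689 to 0.478 and Ltb from -0.380 to 0.327. The cause was not tested. Madcam1, Lta, Ccl19 and Cr2 are limited by depth at week 18, with few reads per library.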

Other observations

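Germinal centre and plasma cell genes did not all follow the lymphocyte genes in active week 12 replicate 3. Of 11 germinal centre and follicular helper genes listed, 5 were highest there, beside 25.1% of all genes. Icos, a costimulator of helper T cells, was at 317 against 0 to 21.2, and Cd40lg, the helper T cell ligand for B cells, at 97.0 was at least 27.0-fold higher than the floor of 3 reads in the other tumours. Bcl6, the transcription factor of both germinal centre B cells and follicular helper T cells, was at 2135 against 848 to 1803. S1pr2, a germinal centre receptor and the most abundant gene of the list, was lowest there, at 1026 against 1760 to 2888. Rgs13, a germinal centre B cell regulator, had 1 read there and at most 10 in any other tumour, too few to place it.

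Among 6 plasma cell genes, Jchain, the joining chain of secreted antibodies, was at 319 against 3.12 to 114, and Mzb1, a chaperone of antibody assembly, at 204 against 0 to 11.6. The other 4 genes were low or lowest. Sdc1 was at 1735 against 2125 to 4839 and Derl3, an endoplasmic reticulum gene of secreting cells, at 202 against 328 to 788, both the lowest of 12. Xbp1 was at 10455 against 8936 to 36033, and Prdm1, the regulator of plasma cell fate, at 132 against 98.1 to 463. Genes of effector and exhausted T cells were highest there in 8 of 11 cases, beside 25.1% of all genes. Ccl5 was at 1553 against 39.6 to 107.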
